A study of Sus scrofa with 12 samples.

Results

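The 9 genes described here belong to the vitamin A (retinoid) pathway or respond to its active product, retinoic acid: RDH10, DHRS9, DHRS3, LRAT, ALDH1A3, CYP26B1, RARA, RARB and TGM2. They were taken by symbol from a table of 30461 gene rows, in which each symbol stood on 1 row. Polyadenylated RNA of pig oviduct epithelium was captured with oligo-dT primers and sequenced, giving 12 libraries in 3 groups of 4. Fresh cells were single cells scraped from the oviduct, for which the labels name no medium. The remaining groups were spheroids, 3-dimensional clusters formed in culture, made either in DMEM/F12, a basal culture medium whose library names carry FBS, or in Incubation Medium, as the labels name it, whose library names carry Diff. The labels give no strain, age, animal number, culture time or medium composition, so whether either medium held a retinoid is not given in the sources used here. They do not say whether replicates came from separate animals or cultures, and p-values then measure only the spread between these libraries.

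Retinol, the transport form of vitamin A, is stored as retinyl esters or oxidised to retinal, and retinal is either reduced back to retinol or oxidised irreversibly to retinoic acid. Retinoic acid binds nuclear receptors of the RAR family, which act on DNA as dimers with RXR receptors, and enzymes of the CYP26 family degrade it. Several genes of the pathway, among them RARB, DHRS3, LRAT and the CYP26 genes, are themselves induced by retinoic acid in many cell types, and retinoic acid takes part in the patterning of the Müllerian duct, from which the oviduct forms.

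The 9 genes were chosen by their roles and by measured values, with the levels and fold changes of all 3 comparisons of these libraries known. Their levels and fold changes are therefore a description, without a test. Levels are CPM, counts scaled to library sizes after TMM adjustment, and a log2 fold change comes with its standard error (SE) and 95% interval from 1 edgeR fit of all tested genes. Total counts per library ranged from 5045218 to 6026901 in fresh cells and from 7583584 to 8603809 in spheroids. A count of 0 allows a true count of up to 3, which is called the floor and lay between 0.348 and 0.588 CPM in these libraries. The floor covers counting error alone, because reads were amplified by PCR and the labels name no molecular identifier.

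In outline, the 9 genes followed 4 patterns. Between fresh cells and DMEM/F12 spheroids, DHRS3 and RARB overlapped and CYP26B1 was at or under the floor in both. All of them were higher in incubation medium spheroids, and DHRS9 was highest there too. ALDH1A3 was far higher in DMEM/F12 spheroids than in either other group. RDH10 and LRAT were lower in both kinds of spheroid than in fresh cells, and RARA was higher in both. TGM2 overlapped in every comparison.

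**Figure D1:**
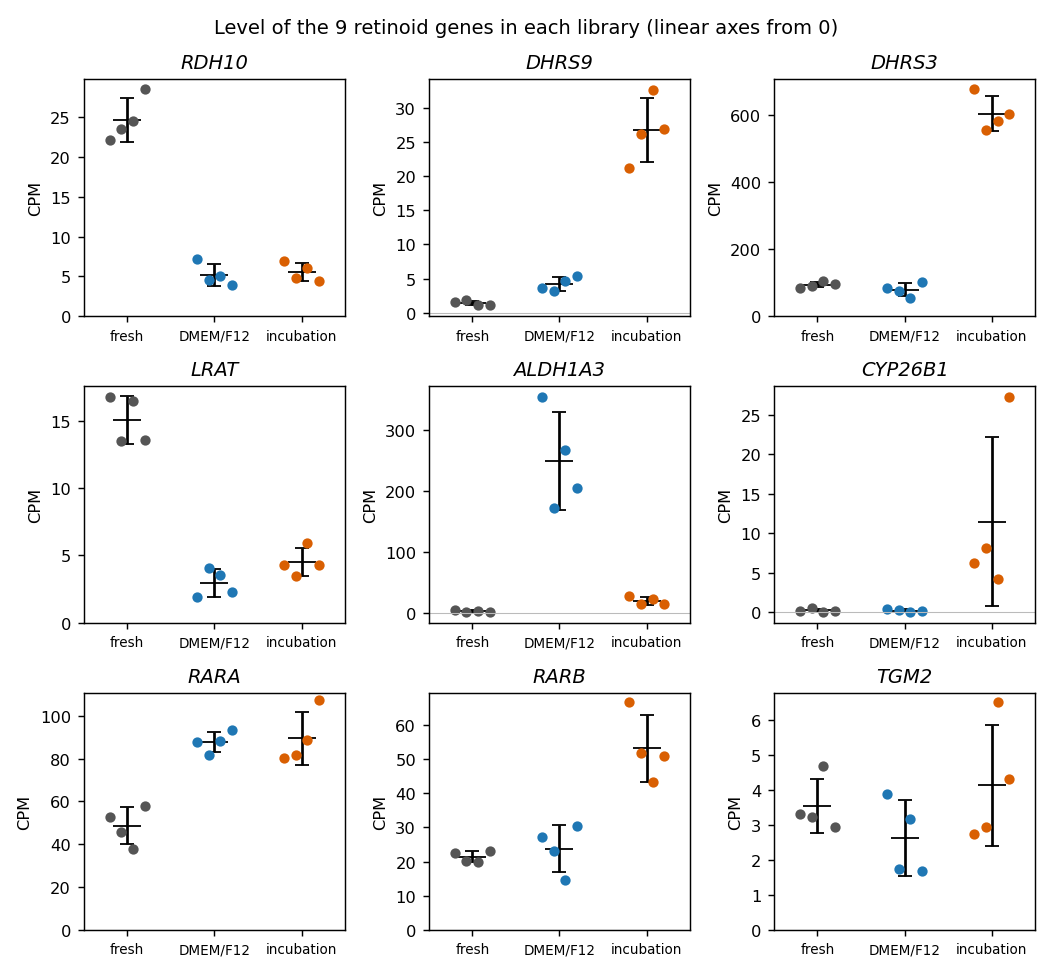
Level of each of the 9 genes in every library, in TMM-scaled CPM on linear axes; points are single libraries, black ticks are group means and bars are SD (n = 4). DHRS3 lies between 555 and 677 CPM in all 4 incubation medium libraries and at or below 104 CPM elsewhere, and ALDH1A3 exceeds 170 CPM only in the DMEM/F12 libraries.

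The oxidation of retinol to retinal is represented by RDH10 and DHRS9. RDH10 (ENSSSCG00025055326), a retinol dehydrogenase that embryos need to make retinoic acid, stood at 22.1, 23.5, 24.5 and 28.6 CPM in fresh cell replicates 1 to 4. It stood at 7.18, 4.53, 5.03 and 3.84 CPM in DMEM/F12 spheroids and at 6.92, 4.81, 6.03 and 4.43 CPM in incubation medium spheroids. All fresh cell libraries lay above all spheroid libraries, and the media overlapped. The log2 fold change from fresh cells was -2.26 in DMEM/F12 (SE 0.191, 95% interval -2.67 to -1.85) and -2.14 in incubation medium (SE 0.19, 95% interval -2.55 to -1.74). Between the media it was 0.12 (95% interval -0.32 to 0.55), and its sign turned without DMEM/F12 replicate 4 (-0.0019) or incubation medium replicate 1 (-0.0099).

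DHRS9 (ENSSSCG00025054357), another short-chain dehydrogenase that can oxidise retinol, went the other way. Its fresh cell libraries held 9, 10, 6 and 6 counts, or 1.57, 1.79, 1.12 and 1.18 CPM. The DMEM/F12 spheroids stood at 3.65, 3.14, 4.63 and 5.40 CPM and the incubation medium spheroids at 21.2, 26.2, 32.7 and 27.0 CPM. The 3 groups did not overlap, and their order was fresh cells, DMEM/F12, incubation medium. The log2 fold change from fresh cells was 1.55 in DMEM/F12 (SE 0.266, 95% interval 0.98 to 2.12) and 4.22 in incubation medium (SE 0.23, 95% interval 3.73 to 4.71). Incubation medium exceeded DMEM/F12 by 2.67 on the log2 scale (SE 0.185, 95% interval 2.27 to 3.07), the rise ranked 18 among the 14070 genes tested.

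DHRS3 and LRAT take retinal and retinol away from retinoic acid synthesis. DHRS3 (ENSSSCG00025044139) reduces retinal to retinol and is known to form a complex with RDH10. It stood at 84.2, 90.0, 104 and 94.7 CPM in fresh cells and at 83.6, 74.1, 54.2 and 101 CPM in DMEM/F12 spheroids, with overlapping libraries. In incubation medium spheroids it stood at 677, 555, 581 and 605 CPM, above every other library. The log2 fold change of incubation medium was 2.7 against fresh cells (SE 0.153, 95% interval 2.37 to 3.02) and 2.95 against DMEM/F12 (SE 0.154, 95% interval 2.62 to 3.28), where the rise ranked 14 of 14070. DMEM/F12 against fresh cells gave -0.25 (95% interval -0.57 to 0.06), which passed the threshold only without DMEM/F12 replicate 4 (-0.38). The coefficient of variation of DHRS3 was 24.8% in DMEM/F12 and 8.64% in incubation medium, and this difference in spread was not tested.

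LRAT (ENSSSCG00025049553), which esterifies retinol for storage, was highest in fresh cells, at 16.7, 13.5, 16.5 and 13.5 CPM. It stood at 1.95, 4.07, 3.57 and 2.28 CPM in DMEM/F12 spheroids and at 4.29, 3.47, 5.91 and 4.30 CPM in incubation medium spheroids. No spheroid library reached the fresh cells, while the media overlapped. Against fresh cells it was lower by a log2 fold change of -2.34 in DMEM/F12 (SE 0.229, 95% interval -2.83 to -1.85) and -1.74 in incubation medium (SE 0.219, 95% interval -2.21 to -1.27). The difference between the media was 0.60 (SE 0.242, 95% interval 0.08 to 1.12); it did not pass the adjusted threshold in the fit of all libraries and passed it without DMEM/F12 replicate 2 (0.80).

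ALDH1A3 (ENSSSCG00025033688) is one of the retinal dehydrogenases that make retinoic acid. Fresh cells held 6.09, 2.87, 2.99 and 2.55 CPM, with replicate 1 apart from the rest. DMEM/F12 spheroids held 355, 173, 268 and 205 CPM, and incubation medium spheroids 28.6, 15.6, 22.9 and 15.6 CPM. The 3 groups did not overlap, in the order fresh cells, incubation medium, DMEM/F12. The log2 fold change from fresh cells was 6.09 in DMEM/F12 (SE 0.326, 95% interval 5.39 to 6.79), the rise ranked 41 of 14070, and 2.5 in incubation medium (SE 0.343, 95% interval 1.76 to 3.23). Incubation medium was lower than DMEM/F12 by a log2 fold change of -3.59 (SE 0.26, 95% interval -4.15 to -3.03), which was 8th among the falls of that comparison.

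CYP26B1 (ENSSSCG00025060358), a cytochrome P450 that inactivates retinoic acid, was at or under the floor in 8 of the 12 libraries. Its counts were 1, 3, 0 and 1 in fresh cells and 3, 2, 0 and 1 in DMEM/F12 spheroids, so no fold change between those groups is given. Incubation medium spheroids held 52, 61, 34 and 203 counts, or 6.2, 8.14, 4.18 and 27.3 CPM, and lay above all other libraries. The incubation medium mean was set against the floor averaged over the libraries of a group. This gave bounds of 20.7-fold over fresh cells and 31.1-fold over DMEM/F12 spheroids, which leave out the spread between incubation medium replicates. The edgeR fit takes in that spread but uses no floor, and it gave log2 fold changes of 5.53 and 5.83. Their lower 95% limits, 3.78 and 4.17, are therefore not limits of the bounds against the floor. Replicate 4 was 6.52 times replicate 3 and set much of the mean: without it the mean fell from 11.5 to 6.18 CPM and the bounds from 20.7-fold to 11.2-fold and from 31.1-fold to 16.8-fold. CYP26B1 passed the filter on low counts only through the incubation medium libraries.

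The other 3 genes are receptors and a response gene. RARA (ENSSSCG00025037215), a retinoic acid receptor found in most tissues, stood at 52.9, 45.6, 38.0 and 57.7 CPM in fresh cells. It stood at 87.6, 81.5, 88.4 and 93.2 CPM in DMEM/F12 spheroids and at 80.3, 81.7, 88.5 and 107 CPM in incubation medium spheroids. Every spheroid library exceeded every fresh cell library. Its log2 fold change was 0.85 in DMEM/F12 (SE 0.125, 95% interval 0.59 to 1.12) and 0.88 in incubation medium (SE 0.125, 95% interval 0.61 to 1.15). The media overlapped, with a difference of 0.03 (95% interval -0.23 to 0.29), whose sign turned with library totals as the scaling (-0.066) and without DMEM/F12 replicate 2 (-0.0041) or incubation medium replicate 4 (-0.068).

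RARB (ENSSSCG00025018872), the receptor whose own gene is a classical target of retinoic acid, stood at 22.6, 20.1, 20.01 and 23.0 CPM in fresh cells and at 27.1, 23.1, 14.6 and 30.3 CPM in DMEM/F12 spheroids. Those groups overlapped (log2 fold change 0.15, 95% interval -0.26 to 0.56). Incubation medium spheroids stood at 66.8, 51.7, 43.3 and 51.0 CPM, above all other libraries. The log2 fold change of incubation medium was 1.31 against fresh cells (SE 0.188, 95% interval 0.91 to 1.71) and 1.16 against DMEM/F12 (SE 0.181, 95% interval 0.77 to 1.55). DMEM/F12 replicate 3 was the lowest library of its group for both RARB and DHRS3, and replicate 4 the highest for both.

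TGM2 (ENSSSCG00025026306), tissue transglutaminase, is induced by retinoic acid in several cell types. It held 14 to 53 counts per library. Its levels were 3.31, 3.23, 4.675 and 2.94 CPM in fresh cells, 3.89, 1.74, 3.18 and 1.68 CPM in DMEM/F12 spheroids and 2.74, 2.94, 6.52 and 4.30 CPM in incubation medium spheroids. All 3 groups overlapped, and the intervals are wide. Its log2 fold change was -0.44 in DMEM/F12 (SE 0.35, 95% interval -1.19 to 0.32), 0.22 in incubation medium (SE 0.336, 95% interval -0.50 to 0.94) and 0.66 between the media (SE 0.331, 95% interval -0.05 to 1.37). The sign of the incubation medium value against fresh cells turned without incubation medium replicate 3 (-0.075).

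**Figure D2:**
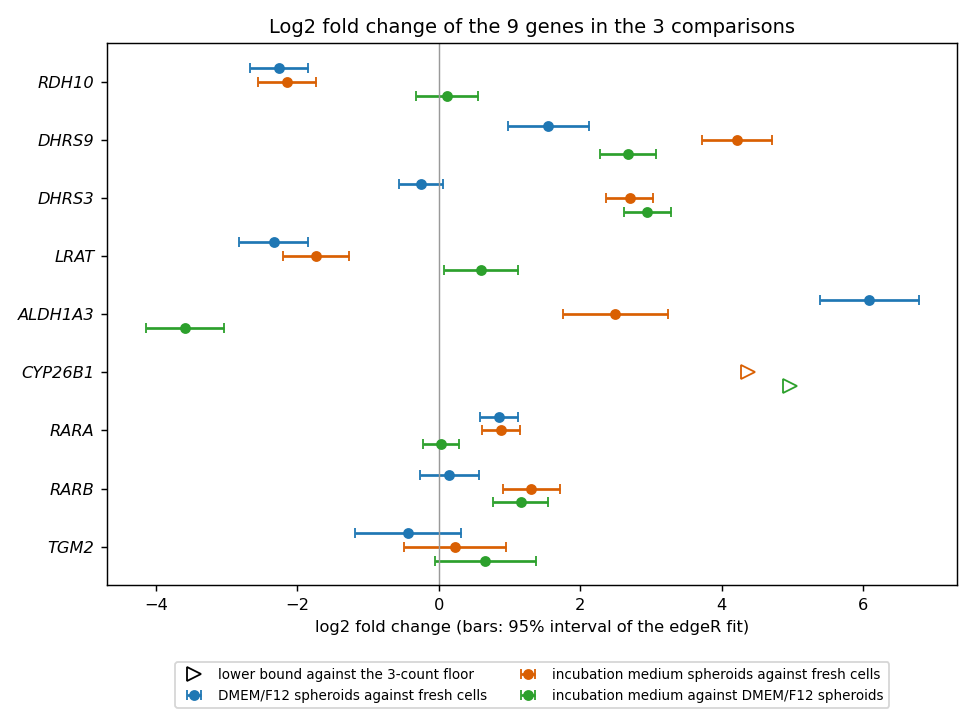
Log2 fold change of the 9 genes (rows) in the 3 comparisons (colours), with 95% intervals as bars. Open triangles set the CYP26B1 mean against the floor of groups at or under it and leave out the spread between replicates. RDH10 and LRAT lie left of 0 against fresh cells in both media, and DHRS3 lies at 2.7 and 2.95 in the comparisons of incubation medium.

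A gene is called where its Benjamini-Hochberg adjusted p in edgeR's quasi-likelihood test was under 0.05 over all 14070 genes tested. Between the media, 4 of the 9 genes were called higher in incubation medium (CYP26B1, RARB, DHRS3 and DHRS9) and 1 lower (ALDH1A3), where 25.0% of all tested genes were called, 12.7% higher and 12.3% lower. Of all the calls between the media 50.9% were higher, and 33.4% were with library totals as the scaling. For DMEM/F12 against fresh cells 5 of the 8 genes with a fold change were called, 3 higher and 2 lower, against 70.7% of all tested genes (35.1% higher and 35.7% lower). For incubation medium 8 of 9 were called, 6 higher and 2 lower, against 71.7% (35.8% higher and 35.8% lower). The groups did not overlap for the same numbers of these genes, 5, 5 and 8, against 27.0% of all tested genes between the media, 65.4% for DMEM/F12 and 65.0% for incubation medium against fresh cells. Since the genes were chosen with these comparisons known, nothing is read from their counts. The comparisons with fresh cells share the fresh cell libraries.

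The remaining genes of the pathway were taken from a list of 56 genes drawn up by role, with earlier results of these data known, so their counts are not independent evidence of a direction. Of these, 38 had a row under their symbol and 23 passed the filter on low counts. Of the 30461 gene rows 17202 carried no symbol, so a listed gene without a row may stand on such a row. DMEM/F12 spheroids differed from fresh cells in 18 of the 23 (78.3%, against 70.7% of all tested genes), with 6 higher and 12 lower. Incubation medium spheroids differed in 21 (91.3%, against 71.7%), with 8 higher and 13 lower. Between the media 8 of 23 were called (34.8%, against 25.0%), 5 higher and 3 lower in incubation medium. The median log2 fold changes of the list were -0.40, -0.69 and 0.04 in these comparisons, and those of all tested genes were -0.0144, -0.0071 and -0.0035.

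**Figure D3:**
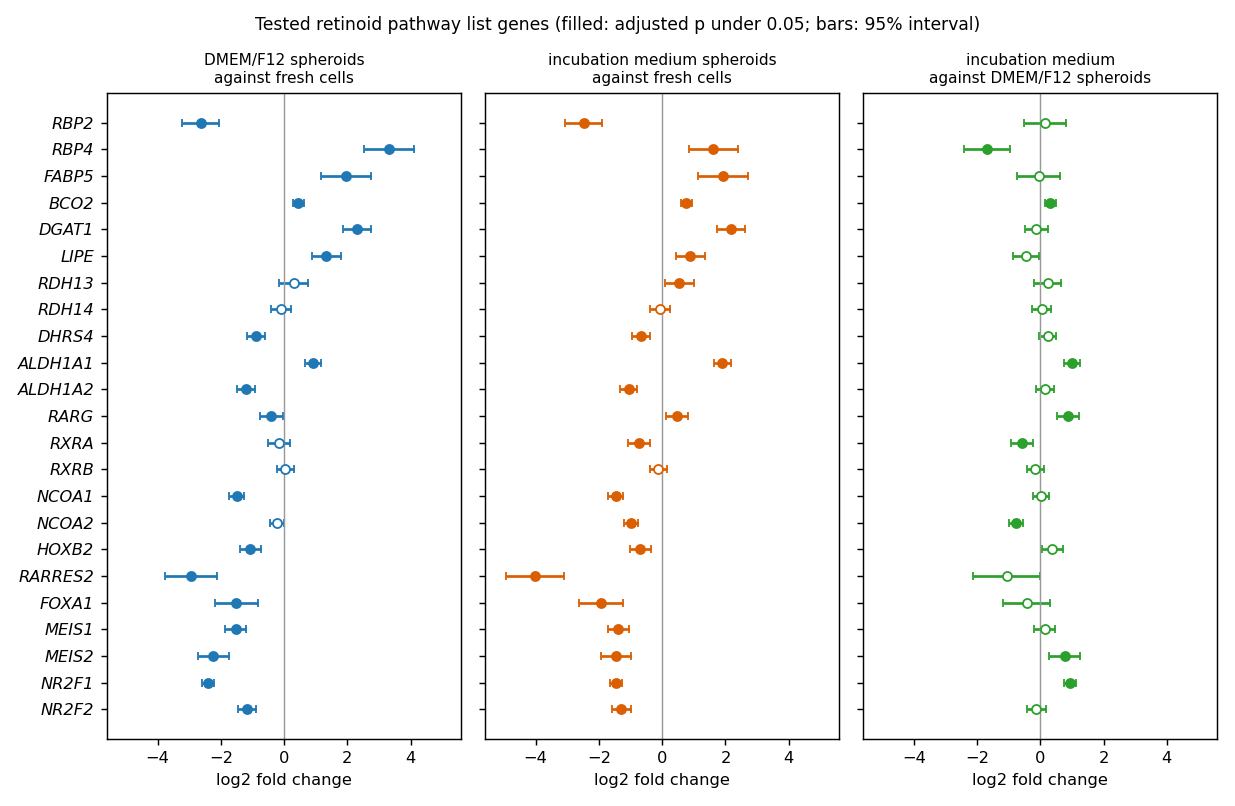
Log2 fold change of the 23 tested genes of the pathway list (rows, ordered by role) in the 3 comparisons (panels), with 95% intervals; filled points have an adjusted p under 0.05. The 7 response genes from HOXB2 to NR2F2 lie left of 0 in both comparisons with fresh cells.

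Among binding and transport proteins, RBP4, the carrier of retinol in blood, changed with the medium. It stood at 66.3, 38.6, 24.9 and 13.5 CPM in fresh cells, at 537, 366, 274 and 257 CPM in DMEM/F12 spheroids and at 113, 129, 114 and 85.0 CPM in incubation medium spheroids. The 3 groups did not overlap, and incubation medium was lower than DMEM/F12 (log2 fold change -1.70, SE 0.34, adjusted p = 0.00229 in edgeR's test). FABP5, a fatty acid binding protein that also carries retinoic acid, rose from 6.85 ± 0.423 CPM (SD, n = 4) to 26.7 ± 15.7 and 26.0 ± 9.0 CPM in DMEM/F12 and incubation medium spheroids. RBP2, a cellular retinol binding protein, fell from 10.7 ± 2.21 to 1.71 ± 0.429 and 1.88 ± 0.762 CPM. FABP5 and RBP2 overlapped between the media and were not called there (95% intervals -0.72 to 0.63 and -0.52 to 0.82).

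Of 5 listed genes of carotenoid cleavage and retinyl ester turnover, 3 were tested. These 3 rose in both kinds of spheroid, where 35.1% of all tested genes were called higher in DMEM/F12 and 35.8% in incubation medium. DGAT1, an acyltransferase that can also esterify retinol, went from 3.57 ± 1.10 CPM in fresh cells to 17.7 ± 1.85 in DMEM/F12 and 16.2 ± 3.35 in incubation medium, a direction opposite to that of LRAT. LIPE, a lipase that also hydrolyses retinyl esters, went from 4.12 ± 0.616 to 10.5 ± 1.61 and 7.67 ± 1.93 CPM. BCO2, a carotenoid-cleaving oxygenase of mitochondria, went from 86.0 ± 6.18 to 117 ± 8.5 and 146 ± 10.1 CPM. It was higher in incubation medium than in DMEM/F12 (log2 fold change 0.32, SE 0.0816, adjusted p = 0.0112 in edgeR's test), and with library totals this call was lost (0.23).

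Of the oxidoreductases that act on retinol or retinal, DHRS4 fell from 32.1 ± 1.86 CPM in fresh cells to 17.2 ± 1.72 in DMEM/F12 and 20.2 ± 3.62 in incubation medium. RDH14 stood at 30.8 ± 4.74, 28.6 ± 4.60 and 29.4 ± 4.52 CPM and was called in no comparison. RDH13 stood at 10.1 ± 3.32, 12.4 ± 2.37 and 14.5 ± 2.21 CPM. DMEM/F12 against fresh cells gave 0.30 (adjusted p = 0.222 in edgeR's test), and 0.31 with the replicate number as a block (adjusted p = 0.049), which is a call. Its call in incubation medium against fresh cells (log2 fold change 0.54) was lost without fresh cell replicate 1 (0.39) or 3 (0.44) or incubation medium replicate 4 (0.45). None of these 3 was called between the media, where the intervals were -0.05 to 0.51 for DHRS4, -0.27 to 0.35 for RDH14 and -0.21 to 0.67 for RDH13.

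The retinal dehydrogenases related to ALDH1A3 each followed a different course. ALDH1A1 stood at 539, 501, 518 and 480.5 CPM in fresh cells, at 1075, 735, 1045 and 975 CPM in DMEM/F12 spheroids and at 2094, 1709, 2159 and 1668 CPM in incubation medium spheroids. No groups overlapped, and incubation medium was the highest, where for ALDH1A3 DMEM/F12 was. ALDH1A1 differed between the media by 0.99 on the log2 scale (SE 0.121, adjusted p = 5.81e-05 in edgeR's test). ALDH1A2 fell from 84.2 ± 16.2 CPM in fresh cells to 36.5 ± 4.20 in DMEM/F12 and 40.5 ± 2.69 in incubation medium (log2 fold change -1.21 and -1.06), with no difference called between the media (0.15, 95% interval -0.13 to 0.43).

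Among the other receptors, RARG, the retinoic acid receptor of many epithelia, was higher in incubation medium than in DMEM/F12 spheroids. It stood at 20.7, 21.6, 14.0 and 20.9 CPM in DMEM/F12 and at 34.5, 33.6, 32.7 and 41.3 CPM in incubation medium, without overlap (log2 fold change 0.88, SE 0.163, adjusted p = 0.00141 in edgeR's test). Fresh cells, at 24.2, 24.6, 19.4 and 34.1 CPM, overlapped both. RARG was called higher in incubation medium than in fresh cells (0.48), a call lost without fresh cell replicate 3 (0.37). It was called lower in DMEM/F12 (-0.40), a call lost in 14 of 19 alternatives: with library totals (-0.32), with no filter (-0.33), with only the groups compared (-0.40), and without any 1 of 11 libraries. Its value was -0.42, -0.42 and -0.23 without fresh cell replicates 1, 2 and 4, it was -0.42, -0.44, -0.26 and -0.42 without DMEM/F12 replicates 1 to 4, and it was -0.38 or -0.39 without each incubation medium library.

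RXRA, a dimer partner of these receptors, was lower in incubation medium than in DMEM/F12, at 18.1, 10.7, 12.3 and 13.4 against 24.7, 17.4, 18.1 and 20.9 CPM. The groups overlapped slightly (log2 fold change -0.57, SE 0.162, adjusted p = 0.0189 in edgeR's test), and the call was lost without DMEM/F12 replicate 1 (-0.46) or incubation medium replicate 2 (-0.47) or 3 (-0.52). RXRB was called in no comparison, at 31.0 ± 2.28, 32.0 ± 2.1 and 28.6 ± 5.77 CPM. Of the coactivators, NCOA1 fell in both media, from 36.5 ± 4.03 CPM to 12.9 ± 1.03 in DMEM/F12 and 13.1 ± 1.11 in incubation medium. NCOA2 stood at 31.4, 27.4, 32.7 and 33.3 CPM in DMEM/F12 and at 19.7, 16.4, 18.7 and 18.5 CPM in incubation medium, without overlap (log2 fold change -0.76, SE 0.103, adjusted p = 0.000131 in edgeR's test).

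Of 15 listed genes known to respond to retinoic acid in other tissues, 11 had a row and 7 were tested. All 7 fell against fresh cells in both media without overlap, where 35.7% of all tested genes were called lower in DMEM/F12 and 35.8% in incubation medium, and 65.4% and 65.0% did not overlap in either direction. NR2F1, an orphan nuclear receptor, stood at 239, 247, 219.5 and 232 CPM in fresh cells, at 42.8, 45.4, 39.7 and 50.2 CPM in DMEM/F12 and at 88.9, 76.0, 87.4 and 88.3 CPM in incubation medium. Incubation medium was thus between the other groups, above DMEM/F12 by 0.93 on the log2 scale (SE 0.0877, adjusted p = 8.38e-06 in edgeR's test). MEIS2, a homeobox gene, stood at 54.2 ± 6.75, 11.5 ± 3.39 and 19.5 ± 6.56 CPM in the same order and was called higher in incubation medium than in DMEM/F12 (0.76, SE 0.235, adjusted p = 0.0284 in edgeR's test). That call was lost with only the groups compared (0.76) and without DMEM/F12 replicate 2 (0.66) or 3 (0.65) or incubation medium replicate 1 (0.65) or 4 (0.59).

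The other 5 response genes were not called between the media. HOXB2 (log2 fold change 0.38, adjusted p = 0.093 in edgeR's test) passed with the replicate number as a block (0.37, adjusted p = 0.0159). MEIS1 stood at 362 ± 22.05 CPM in fresh cells and at 125 ± 27.9 and 138 ± 25.5 CPM in DMEM/F12 and incubation medium spheroids. NR2F2 stood at 100.3 ± 11.97, 44.7 ± 8.48 and 41.1 ± 3.90 CPM, and HOXB2 at 72.0 ± 6.04, 34.2 ± 5.52 and 44.6 ± 10.7 CPM. RARRES2, the gene of the secreted protein chemerin, stood at 18.8 ± 6.41, 2.44 ± 0.785 and 1.16 ± 0.928 CPM. Its log2 fold change in incubation medium against fresh cells was -4.01, and -4.60 without incubation medium replicate 4. The incubation medium libraries held only 6, 2, 10 and 18 counts of it, with replicate 2 under the floor. The pioneer factor FOXA1 stood at 8.58 ± 3.65, 2.96 ± 0.713 and 2.22 ± 0.719 CPM.

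**Figure D4:**
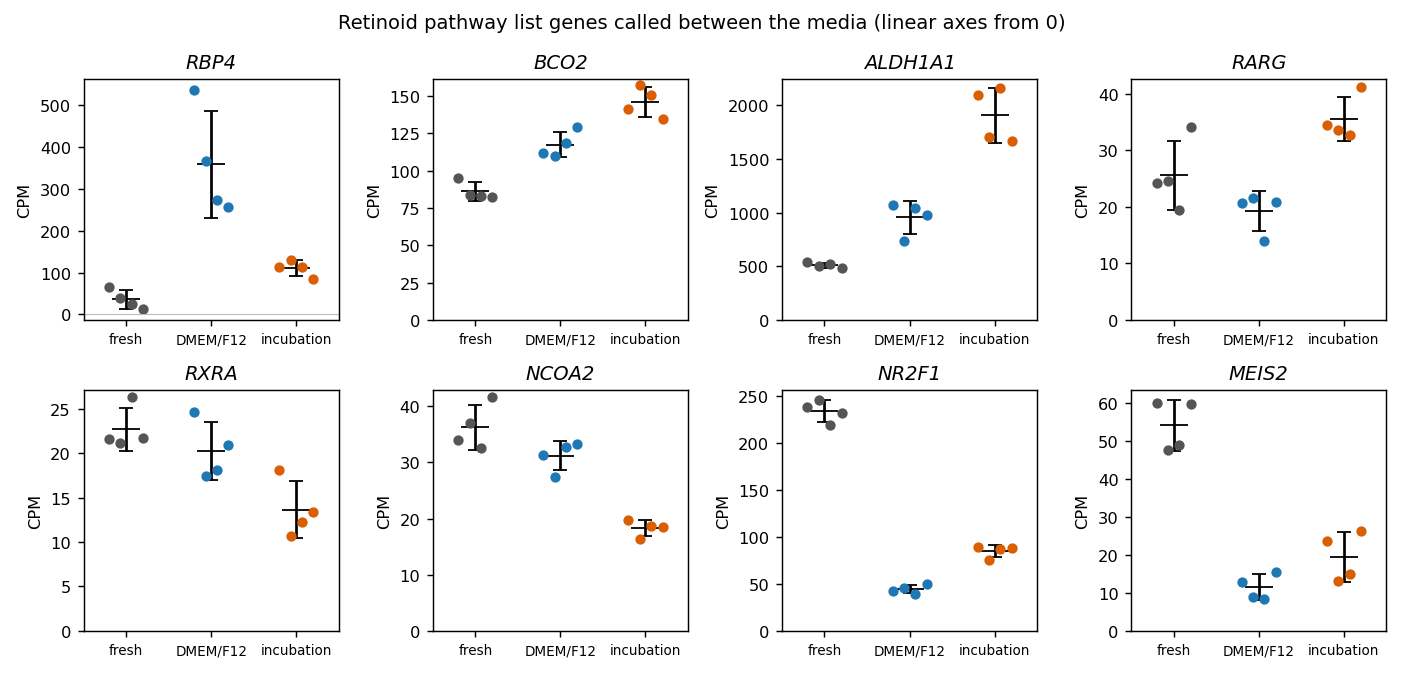
Level of the 8 pathway list genes called between the media in every library, in TMM-scaled CPM on linear axes; points are single libraries, black ticks are group means and bars are SD (n = 4). The mean of ALDH1A1 is 509.5 CPM in fresh cells, 957 in DMEM/F12 and 1907 in incubation medium, and NR2F1 in incubation medium lies between the DMEM/F12 spheroids and the fresh cells.

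The 15 list genes with a row that did not pass the filter reached at most 23 counts in any library, and those named here were picked after their values were seen. RDH8, RXRG, HOXB1 and STRA8 had 0 counts in every library. CYP26A1, the relative of CYP26B1 that retinoic acid induces in many cells, reached at most 7 counts in fresh cells, 2 in DMEM/F12 and 5 in incubation medium. CD38, a surface enzyme that retinoic acid induces in myeloid cells, reached at most 5.5, 3.5 and 22.5 counts in these groups. STRA6, the membrane receptor for RBP4, reached at most 1, 5 and 5 counts in them.

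Markers of cell types moved with the groups. Markers without a row under their symbol may stand on rows that carried no symbol. Epithelial markers (4 of 5 with a row) summed to 2250 to 2510 CPM in fresh cells, 3520 to 3960 in DMEM/F12 and 3220 to 5080 in incubation medium, with EPCAM present in every library. The higher sums came from CDH1, KRT8 and KRT18, while the mean of EPCAM was 904 CPM in fresh cells, 628 in DMEM/F12 and 715 in incubation medium, with overlapping libraries. Secretory cell markers (2 of 4 with a row, OVGP1 and SLPI) summed to 18800 to 29800 CPM in fresh cells and to 470 to 1420 and 505 to 1550 CPM in the spheroids. Multiciliated cell markers (3 of 6 with a row) summed to 941 to 1060 CPM in fresh cells and to 112 to 284 and 103 to 198 CPM in the spheroids. Stromal and smooth muscle markers (6 of 10 with a row) summed to 60.2 to 95, 12.7 to 35.5 and 7.26 to 13 CPM, with DES at 0 in all fresh cell libraries. These markers did not move alike. COL3A1 had means of 24.1, 0.574 and 0.358 CPM, and COL1A2 of 18.9, 2.03 and 4.42 CPM. COL1A1 overlapped between fresh cells and DMEM/F12 and was lower in incubation medium (means 31.1, 22 and 3.44 CPM). PDGFRA had means of 1.11, 1.76 and 0.286 CPM, and ACTA2 of 1.72, 1.38 and 1.61 CPM.

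Leukocyte markers (4 of 6 with a row) summed to 447 to 495, 415 to 480 and 503 to 601 CPM, nearly all of it from CD79A, and to 9.54 to 14.1, 4.08 to 7.67 and 2.96 to 7.59 CPM without CD79A. Endothelial markers (4 of 4 with a row) summed to 39.7 to 55.9, 136 to 251 and 91.1 to 148 CPM, with VWF at 0 in fresh cells and DMEM/F12 spheroids. The higher sums came from KDR and CDH5, while PECAM1 went the other way, from a mean of 15.1 CPM in fresh cells to 7.94 and 8.03 CPM in the spheroids, without overlap. LRAT, RDH10, ALDH1A2, RBP2, DHRS4, NCOA1 and the 7 response genes fell in the same libraries in which secretory, multiciliated and stromal sums were lower. In those libraries epithelial and endothelial sums were higher. RARA, DHRS9, ALDH1A3, ALDH1A1, RBP4, FABP5, DGAT1, LIPE and BCO2 were called higher in both kinds of spheroid. The part of these cell types in the results was not tested, and in bulk libraries fewer cells of a type and less RNA per cell cannot be told apart.

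Incubation medium replicate 4, the library with 27.3 CPM of CYP26B1, also had the highest epithelial sum (5080 CPM), stromal sum (13 CPM), leukocyte sum (601 CPM) and endothelial sum (148 CPM) of its group. That leukocyte sum was nearly all CD79A, whose maximum in the group was 598 CPM. Without CD79A the leukocyte sums of the group were 2.96 to 7.59 CPM. Of the stromal sum 7.52 CPM was COL1A1, whereas COL1A2 was lowest of the group in replicate 4 (2.96 against 3.82 to 6.27 CPM). The secretory sum (1130 CPM) and multiciliated sum (145 CPM) of replicate 4 were below those of replicate 1 (1550 and 198 CPM). RARA was highest in replicate 4 too, whereas RARB, DHRS3 and DHRS9 were not. The part of these markers in the CYP26B1 level was not tested.

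Profiles were compared with those of the genes that had a symbol and a mean of at least 20 CPM, as the root mean square difference of log2 CPM over the 12 libraries after each gene was centred on its own mean. This describes the likeness of shapes, largely set by the group means, and says nothing of shared function. Nearest to DHRS3 were CA12 (0.40), a carbonic anhydrase, PLAT (0.44), tissue plasminogen activator, and LDHD (0.64), a lactate dehydrogenase of mitochondria. CA12 stood at 12.5 ± 4.70, 10.9 ± 5.47 and 78.6 ± 16.1 CPM in fresh cells, DMEM/F12 and incubation medium, and PLAT at 434 ± 34.8, 598 ± 62.5 and 2660 ± 96.5 CPM. Nearest to RARB were PABPC1 (0.25), CTSS (0.28) and MGST1 (0.29), and nearest to CYP26B1 were CA12 (0.99), DHRS3 (1.00) and ANGPTL4 (1.09).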

How the data were processed

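RNA of 12 libraries was primed with oligo-dT, tagmented and amplified, per the labels' protocols. Each gene has an expected count in every library, as the authors deposited it, and 19.1 to 20.5% of nonzero values per library were fractional. The CPM columns that the authors deposited equalled counts over library totals to within 4.98e-06 and served only as a check. The submitters' processing notes name fastp 0.24.0, STAR 2.7.11, SAMtools 1.22.1 and featureCounts of Subread 2.1.1; the genome build and settings are not given in the sources used here, so no positions or sequences are printed. Counts were not whole in 3 of 12 libraries for RARA and DHRS3, 2 for RARB and 1 for ALDH1A3. The 92 spike-in rows (at most 0.000614% of counts) were left out, as they name no gene.

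Counts were rounded to whole numbers. Low genes were removed with filterByExpr, libraries were scaled by TMM, and all 12 entered the same quasi-likelihood model (edgeR 4.0.16, R 4.3.3), with p-values adjusted by Benjamini-Hochberg over 14070 genes and a threshold of 0.05. DESeq2 1.42.0 was an alternative. Log2 CPM used a prior count of 2. Same-numbered libraries deviated together in 12 of 12 pairs (correlation across genes 0.196 to 0.516), and the labels do not say what a number marks. The main model left the replicate number out, so its SE, intervals and p-values take no account of such pairing. The number entered as a block only in an alternative. Every pair of replicates showed spread beyond counting noise (chi-square over its degrees of freedom, 5.61 to 16.1).

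The 9 genes and the marker and pathway lists were chosen with earlier results of these data known. All 9 genes are named, with tested pathway genes of at least 5 CPM in a group, those called between the media with their values, and the 3 nearest profiles of CYP26B1, RARB and DHRS3. Promoters were not analysed here.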

Additional observations from a re-analysis of the deposited data

Results flagged for a closer look

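In 94 groups of 4 libraries, over the 9 genes and the 23 tested pathway genes, 6 held a library whose gap to its nearest neighbour exceeded 0.829 of the range of the group; chance gives about 1 in 20. ALDH1A3 was 6.09 CPM in fresh cell replicate 1 and 2.55 to 2.99 in the others (gap 0.875 of the range). BCO2 was 95.2 CPM in the same library and 82.3 to 83.8 in the others. RXRA was 26.4 CPM in fresh cell replicate 3 against 21.2 to 21.8. RARG was 14.0 CPM in DMEM/F12 replicate 3 against 20.7 to 21.6. DGAT1 was 21.2 CPM in incubation medium replicate 4 against 14.3 to 14.8, and NR2F1 was 76.0 CPM in incubation medium replicate 2 against 87.4 to 88.9.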

How the results depend on the processing

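The fold changes of the 9 genes gave 26 values, each recomputed under 19 alternatives (DESeq2, library totals, other filters, rounding down, only the groups compared, the replicate block, and without each library). Of these 494 values, 486 kept their direction and side of the threshold, 2 passed it newly and 6 changed sign. The 6 were of differences that were not called: RARA between the media (-0.066 with library totals, and -0.068 to 0.076 without 1 library), RDH10 between the media (-0.0099 to 0.32 without 1 library) and TGM2 in incubation medium against fresh cells (-0.075 to 0.39 without 1 library). Of 893 values of called pathway genes 27 lost the call and 0 changed sign. Without 1 library, pathway genes called numbered 17 to 19 for DMEM/F12 and 19 to 22 for incubation medium against fresh cells, and 7 to 8 between the media. With the replicate block they numbered 19, 21 and 9, and all genes called between the media went from 3522 to 4613. RDH13 and HOXB2 each gained a call under the replicate block (adjusted p = 0.049 and 0.0159 in edgeR's test), and it changed no other call of the 9 genes or the pathway list. Depth limits CYP26B1, which had at most 3 counts in 8 libraries, and TGM2. Low counts also limit RARRES2 and RBP2 in incubation medium (2 to 18 and 7.5 to 21.5 counts) and DHRS9 in fresh cells (6 to 10 counts).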

Other observations

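DMEM/F12 replicate 4 was the highest library of its group for 16 of the 31 tested retinoid genes above the floor (51.6%), and for 21.1% of all tested genes. Replicate 3 was the highest for 2 of them (6.45%, against 31.6% of all tested genes). This was looked for after the values of RARB and DHRS3 had been seen, and was not tested.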
